A study of Mus musculus with 6 samples.

Results

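The CCN genes encode secreted matricellular proteins, which sit in the extracellular matrix and signal through integrins and other receptors without forming its scaffold. The 5 genes described here, Ccn1 to Ccn5, were taken by symbol from a table of 25746 genes. They were measured in mouse cardiac fibroblasts labelled as Acta2 knockout (KO) or wild type (WT). RNA-seq covered 2 samples of each genotype. ATAC-seq, in which a transposase marks accessible DNA, covered 1 of each. The family was chosen by its log2 fold changes between KO and WT in these same samples. Its differences between genotypes are therefore given as a description, without a p-value, and nothing is read from how many members passed a threshold.

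CCN proteins are built from modules that resemble an IGF-binding domain, a von Willebrand type C repeat, a thrombospondin type 1 repeat and, in all but CCN5, a cysteine-knot C-terminus. Ccn1 (older symbol Cyr61) and Ccn2 (Ctgf) are immediate-early genes driven by serum, stretch, the YAP and TAZ coactivators with their TEAD partners, and the actin-sensing MRTF coactivators with SRF. Ccn2 is also a well-known TGF-β target and a marker of fibrosis in the heart. Ccn3 (Nov) and Ccn5 (Wisp2) are often described as acting against Ccn2, and Ccn4 (Wisp1) is a Wnt-responsive gene of proliferating fibroblasts.

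The KO cells derive from floxed Acta2 mice, in which the gene of α-smooth muscle actin can be excised by Cre, and the WT cells from WT mice. Per the labels, both genotypes received an adenovirus carrying Cre, followed by a TGF-β treatment lasting 2 days. Cells without TGF-β or without Cre are not compared here. The same labels also list tamoxifen for a MerCreMer recombinase, whose promoter they do not name, at a daily 75 mg/kg over 5 days in mice aged 6 weeks, infarction by coronary ligation at 9 weeks, a further tamoxifen course from 1 day before to 5 days after infarction, growth in vivo, and sorting of cells with a Tcf21 lineage reporter. They do not say which of these applied to each library, how many animals were pooled, or whether the replicates were separate cultures. The p-values below therefore rest on a spread between samples that may be technical.

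The RNA-seq libraries held 8429166 to 11370115 estimated counts. Acta2 itself stood at 2921.15 and 2909.21 in the KO libraries against 18230 and 19889.62 in the WT libraries, and 11.9% of its WT level was left after scaling for depth. Which exons the floxed allele removes is not stated in the labels. Fibroblast markers were abundant in every library. Their summed level was 2933 and 2913 CPM in the KO libraries against 3937 and 3811 CPM in the WT libraries (CPM, counts per 1000000 counts of a library whose size was scaled by TMM). Of 8 fibroblast markers, 7 were called lower in KO (edgeR, Benjamini-Hochberg adjusted p under 0.05). Over all tested genes 35.7% were called, 18.3% higher and 17.4% lower. Macrophage markers, of which 6 of 7 tested were called higher in KO, summed to 176 and 178.2 CPM against 101.3 and 97 CPM. Fcgr1 stood at 0 throughout and Ptprc, the pan-leukocyte marker, at 0.893 and 0.355 CPM on average. Endothelial markers summed to 143.6 and 155.2 CPM against 115 and 108.8 CPM, with 7 of 9 called higher and 1 lower. The sums were 53.29 and 56.85 against 50.37 and 51.77 CPM for pericyte and smooth muscle markers (2 of 5 tested called higher and 3 lower). These near-equal sums held opposite changes from WT to KO. Myh11 rose from 1.45 to 11.5 CPM and Mcam from 10.5 to 22.5 CPM. Steap4 fell from 22.5 to 10.2 CPM, Rgs5 from 7.58 to 5.01 CPM and Cspg4 from 8.62 to 5.77 CPM. Mesothelial markers summed to 272.7 and 264 against 271.6 and 267.7 CPM (1 of 6 called higher and 4 lower). The 1 called higher, Krt19, rose from 98.8 CPM in WT to 138 CPM in KO, and of the 4 lower Upk3b fell from 38.2 to 21.3 CPM. For cardiomyocyte markers the sums were 5.959 and 4.837 against 6.956 and 8.185 CPM, with Nppa at 0 and the 1 tested gene called lower. The part of these markers in any CCN value below was not tested, and in bulk RNA fewer cells of a type and less RNA per cell cannot be told apart.

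Sequences are shown for the open regions that the results below return to. RefSeq's promoter table for GRCm38.p6 holds Ccn1 among the 5 genes. Its 250 bases before the start site, chr3:145649986-145650235 on the minus strand, contain the letters CATTCC, the core of the TEAD site, 103 bases before the start and a TATAAA box 25 bases before it, both in capitals.
Ccn1 promoter: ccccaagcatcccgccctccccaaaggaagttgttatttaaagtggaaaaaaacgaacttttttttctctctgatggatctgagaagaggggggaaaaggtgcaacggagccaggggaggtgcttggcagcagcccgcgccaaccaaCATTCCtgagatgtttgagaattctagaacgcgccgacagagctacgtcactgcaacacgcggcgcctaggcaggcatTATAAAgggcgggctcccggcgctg
Both strands were searched over the whole window, which runs on for 50 bases past the start. CATTCC occurred in 14.6% of 32544 promoter windows of that length. The letters CAGAC, the SMAD box, matched past the start site and did so in 49.5% of windows, while TGANTCA (AP-1, in 7.79% of windows) and the SRF CArG box (in 1.64%) had no match. A match is a description of letters and not a bound site.

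Away from the start sites, the strongest upstream peaks that both ATAC-seq libraries shared near Ccn1, Ccn2 and Ccn5 are printed next as 200 bases around the WT summit, plus strand of GRCm38, with any CATTCC or its reverse complement in capitals. The Ccn1 region lies between genes at -35.16 kb from its start (negative is upstream), at chr3:145685037-145685236. The Ccn2 region lies at -5.73 kb from its start, at chr10:24589608-24589807, in an intron of the antisense transcript Gm15270. The Ccn5 region, between genes at chr2:163798523-163798722, lies at -22.24 kb and is shown in place of a stronger WT peak at -19.42 kb because it holds 2 CATTCC matches, a choice made after they were seen.
Ccn1 upstream: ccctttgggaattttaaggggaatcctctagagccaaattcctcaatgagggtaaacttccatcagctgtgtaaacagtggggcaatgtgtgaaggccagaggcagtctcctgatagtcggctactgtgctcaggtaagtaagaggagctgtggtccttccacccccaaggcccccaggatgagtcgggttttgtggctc
Ccn2 upstream: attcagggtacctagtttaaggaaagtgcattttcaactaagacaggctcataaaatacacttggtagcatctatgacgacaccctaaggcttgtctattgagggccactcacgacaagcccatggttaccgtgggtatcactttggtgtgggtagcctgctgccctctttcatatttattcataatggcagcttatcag
Ccn5 upstream: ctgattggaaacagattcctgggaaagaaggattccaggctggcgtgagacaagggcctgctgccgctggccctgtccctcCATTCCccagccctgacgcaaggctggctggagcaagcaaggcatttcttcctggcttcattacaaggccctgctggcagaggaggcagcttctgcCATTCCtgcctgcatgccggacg

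Ccn2 was far lower in KO. Its gene (ENSMUSG00000019997) occupies bases 24595442 to 24598683 of chromosome 10 (mm10, plus strand). The KO libraries held 1245.97 and 1199.78 of its estimated counts and the WT libraries 7605.18 and 8377.25. At scaled library size this came to 109.2 and 109.5 CPM for KO against 912 and 926.5 CPM for WT. Both KO libraries stood at nearly the same value, far below both WT libraries. The KO mean of 109.4 ± 0.236 CPM was 11.9% of the WT mean of 919.3 ± 10.3 CPM (SD, n = 2), an 8.41-fold lower level and a log2 fold change of -3.07 (SE 0.038). By size of change the gene was 17th from the bottom of 12192 tested genes, directly next to Acta2 with -3.07 (SE 0.030). Of the distinct 100-base windows of Ccn2 transcripts, 12.1% also occur in Gm15270, which runs antisense through the gene at 24549441 to 24597108. The counting is not stated to use strand, so reads of this partner cannot be told apart from those of Ccn2 there.

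Ccn1, the closest relative of Ccn2 in regulation, did not share that loss and was slightly higher in KO. The gene (ENSMUSG00000028195, minus strand of chromosome 3, 145646976 to 145649981) stood at 1548 and 1560 CPM in the KO libraries and at 1391 and 1377 CPM in the WT libraries. The genotypes did not overlap, but the gap was small beside the level: 1554 ± 8.58 against 1384 ± 9.8 CPM (SD, n = 2), a 1.12-fold difference and a log2 fold change of 0.17 (SE 0.025).

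Ccn5 (ENSMUSG00000027656, plus strand of chromosome 2, 163820861 to 163833146), the member without the C-terminal module, was the next lowest in KO. Its level was 75.36 and 70.73 CPM in KO against 269.7 and 256.4 CPM in WT. Every KO value lay far below every WT value, with 27.8% of the WT mean left (73.04 ± 3.27 against 263 ± 9.42 CPM, SD, n = 2). The log2 fold change was -1.85 (SE 0.052), 69th from the bottom of all tested genes.

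Ccn4 (ENSMUSG00000005124, plus strand of chromosome 15, 66891320 to 66923201) was lower by a smaller amount. It measured 183.1 and 180.5 CPM in the KO libraries and 276.4 and 291.7 CPM in the WT libraries, which leaves 64% of the WT mean (181.8 ± 1.85 against 284 ± 10.8 CPM, SD, n = 2; log2 fold change -0.64, SE 0.044). Ccn3 (ENSMUSG00000037362, plus strand of chromosome 15, 54745702 to 54754039) was scarce. Its libraries held 108 and 105 counts in KO and 107 and 119 in WT, or 9.464 and 9.583 CPM against 12.83 and 13.16 CPM, since the WT libraries were smaller. The difference of -0.45 on the log2 scale had the widest SE of the 5 members, 0.15. Ccn6, not among the 5, had 0 counts in each library, and the 3 counts that such a value allows are at most 0.356 CPM.

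**Figure D1:**
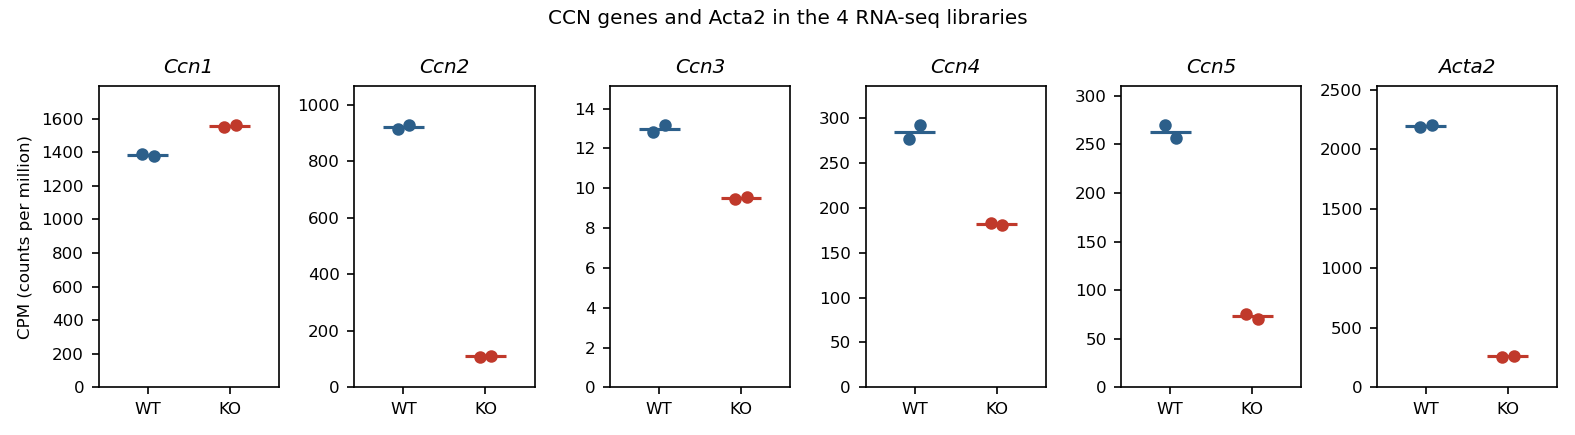
Levels of the 5 CCN genes and Acta2 in CPM (y axis, from 0, a scale for each gene) in 2 WT and 2 KO RNA-seq libraries, with a point for each library and a line at the mean. Ccn2 is as much lower in KO as Acta2 (109.4 against 919.3 CPM), while Ccn1 stands at 1384 CPM in WT and 1554 CPM in KO.

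All 5 members passed the filter on low counts. In the fit across all genes 4 were called lower and 1 higher, where 35.7% of 12192 tested genes were called, 17.4% lower and 18.3% higher (edgeR quasi-likelihood test, Benjamini-Hochberg adjusted p under 0.05). The CPM ranges of the genotypes did not overlap for any of the 5, as for 67.1% of tested genes, 32.7% with KO below WT and 34.3% with KO above. Ccn3 was not called by DESeq2, when any 1 library was left out, or with a BCV (biological coefficient of variation, the assumed relative spread between replicates) of 0.1 in place of the fitted 0.0311, and Ccn1 was not called with a BCV of 0.1. As the family was picked with this contrast in view, these counts describe it and test nothing. The median log2 fold change of the members was -0.64, against 0.0014 over all tested genes. Within the family, 99.7% of tested genes had a smaller absolute change than Ccn2, 98.7% a smaller one than Ccn5, 87% than Ccn4, 77.6% than Ccn3 and 41.2% than Ccn1.

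**Figure D2:**
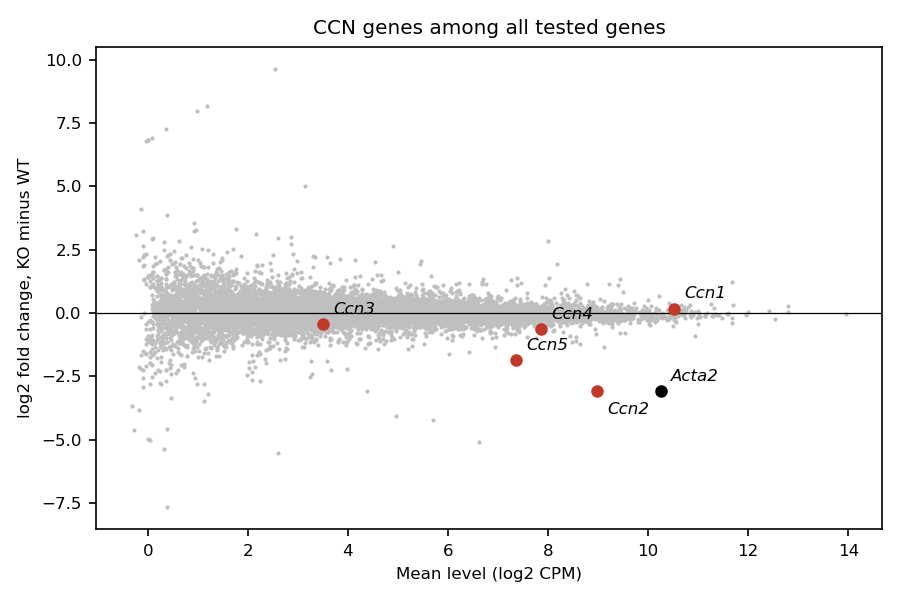
Log2 fold change, KO minus WT (y axis), against the mean level in log2 CPM (x axis) for 12192 tested genes (grey), with the CCN members in red and Acta2 in black. Ccn2 lies beside Acta2 at -3.07, while Ccn1 lies near the zero line at 0.17.

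Between genes, levels were compared per kb of exon, as CPM divided by the length of the gene's merged exons. Ccn1 was the most abundant member in both genotypes, at 685.6 ± 4.85 CPM per kb in WT and 769.7 ± 4.25 in KO (SD, n = 2), above 99.5% and 99.7% of tested genes with a known length. In WT the order below it was Ccn2 at 321.3 ± 3.59, Ccn5 at 136.7 ± 4.9, Ccn4 at 51.04 ± 1.94 and Ccn3 at 4.53 ± 0.0814 CPM per kb. These WT levels were separated by more than the spread of their libraries. In KO, Ccn2 at 38.22 ± 0.0825 and Ccn5 at 37.97 ± 1.7 CPM per kb could not be ordered, since the Ccn5 libraries (39.17 and 36.76) lay on both sides of the Ccn2 libraries (38.16 and 38.28). Ccn4 followed at 32.67 ± 0.333 and Ccn3 at 3.319 ± 0.0293 CPM per kb. Ccn2 thus moved from above 98.5% to above 86.1% of tested genes and Ccn5 from above 95.8% to above 86%.

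The family's summed level per kb was 1202 and 1196 in the WT libraries and 880.3 and 883.6 in the KO libraries. Its make-up shifted toward Ccn1, which formed 57.3% and 57% of the sum in WT and 87.1% and 87.5% in KO. Ccn2 went from 26.5% and 27.1% to 4.34% and 4.33%, and Ccn5 from 11.7% and 11.1% to 4.45% and 4.16%. The share of Ccn4 was 4.13% and 4.38% in WT and 3.74% and 3.67% in KO, and Ccn3 stayed at or under 0.383% in each library. Put as a ratio, there was 2.16 and 2.11 times as much Ccn1 as Ccn2 transcript per kb in WT and 20.1 and 20.2 times as much in KO.

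**Figure D3:**
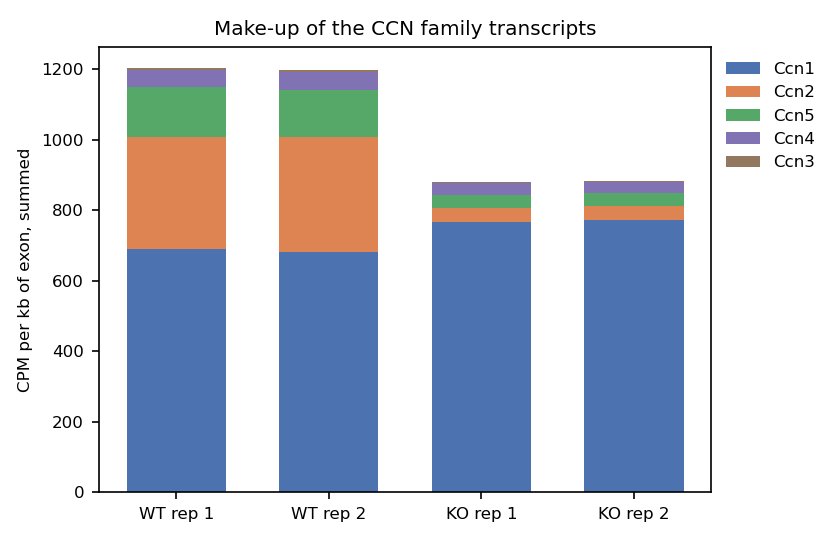
Summed level of the CCN genes in CPM per kb of exon (y axis, from 0) in each RNA-seq library, stacked by gene. Ccn1 forms most of each bar, and the Ccn2 and Ccn5 parts are smaller in both KO libraries.

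For each member the 3 genes with the most similar pattern over the 4 RNA-seq libraries were sought, by the Euclidean distance between log2 CPM values centred on each gene's mean, among genes with a mean of at least 2 on that scale. For Ccn2 the nearest of all was Acta2, at a distance of 0.0356, followed by Cramp1l (0.191; log2 fold change -3.06) and Akr1c18 (0.767; -2.39). For Ccn5 these were Hoxb5 (0.148), Pck2 (0.227) and Dhrs3 (0.251), and for Ccn4 Idh1 (0.0274), Igf1 (0.0411) and Rnaseh1 (0.0481). Those named for Ccn3 are Enpp5 (0.017) and Rpl17 (0.0247), the latter uncertain because 42.4% of its windows occur in other genes. For Ccn1 they were Ptbp3, Slc38a1 and Tgif1. With 4 libraries in 2 genotypes, these distances mostly reflect the size of the KO against WT difference.

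The genes that surround the family in its pathways came from lists of upstream regulators, receptors and binding partners, proteases, YAP and TAZ targets, and other matricellular genes, chosen with earlier results of these data known. Among upstream regulators, 6 of 22 tested genes rose and 2 fell, with a median log2 fold change of 0.0201 and 36.4% called, close to the 35.7% of all tested genes. The TGF-β ligand genes Tgfb2 and Tgfb3 rose from 45.3 ± 1.04 to 83.7 ± 0.185 CPM and from 23.2 ± 1.16 to 49.4 ± 0.978 CPM (SD, n = 2), log2 fold changes of 0.89 (SE 0.068, adjusted p = 3.08e-11) and 1.09 (SE 0.090, adjusted p = 1.42e-10) by edgeR. Srf, the actin-responsive transcription factor, rose by 1.21 (SE 0.22, adjusted p = 7.64e-05) from a low 3.78 ± 0.761 to 8.77 ± 0.758 CPM. Smad7, the inhibitory SMAD that TGF-β induces, fell by 0.56 on the log2 scale (SE 0.086, adjusted p = 7.58e-06), from 48.5 ± 3.33 to 32.9 ± 2.02 CPM. The other gene that fell was Smad4, the common partner of the receptor-activated SMADs, at -0.51, and its call ended without KO replicate 1 (adjusted p = 0.242) and in DESeq2 (0.204).

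The coactivator genes themselves were named here after their values were seen, and their part in the CCN values was not tested. Yap1 measured 42.1 ± 4.43 CPM in WT and 52.7 ± 5.31 CPM in KO and Wwtr1, which encodes TAZ, 46.6 ± 0.953 and 53.5 ± 0.863 CPM (SD, n = 2). Both passed in edgeR (log2 fold change 0.32, adjusted p = 0.00479, and 0.20, adjusted p = 0.0357). Neither passed in DESeq2 (adjusted p = 0.147 and 0.394) or in edgeR with a BCV of 0.1 (adjusted p = 0.172 and 0.455). The call of Yap1 ended without KO replicate 2 (adjusted p = 0.114) or WT replicate 1 (0.0698), and that of Wwtr1 without any 1 library (0.0642 to 0.189). Of 4 TEAD genes none passed, Tead1 being the most abundant with 72.8 ± 4 CPM in WT and 68.8 ± 2.67 CPM in KO. The MRTF coactivator genes did not pass in edgeR either, with Mrtfa at 0.32 (adjusted p = 0.114) and Mrtfb at 0.019 (adjusted p = 0.902). Among 20 tested targets of YAP and TAZ other than CCN genes, 8 rose and 4 fell, with a median of 0.101 and 60% called, where 18.3% of all tested genes were called higher and 17.4% lower. F3, the tissue factor gene, rose by 0.65 (SE 0.053, adjusted p = 1.2e-10) and the receptor kinase gene Axl by 0.31 (SE 0.035, adjusted p = 4.59e-08), both by edgeR, and Tgfb2 belongs to this list too. The call of Axl ended with a BCV of 0.1 (adjusted p = 0.14). The 4 that fell were Ccdc80 (-0.51), Myof (-0.34), Nt5e (-0.72) and Rbms3 (-0.25), of which only Ccdc80 kept its call under every alternative run. Nt5e lost its call without WT replicate 2 (adjusted p = 0.113). The -0.72 of Nt5e was the lowest of these values.

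Receptors and binding partners of CCN proteins went both ways, with 7 of 22 tested genes rising and 7 falling and a median of 0.0995. Calls made up 63.6% of this list and 35.7% of all tested genes. Itga5, a subunit of the fibronectin receptor, rose most clearly, from a WT level of 140 ± 2.45 to 368 ± 1.1 CPM in KO (SD, n = 2; log2 fold change 1.40 with SE 0.044, adjusted p = 4.13e-20 by edgeR). Hspg2, the perlecan gene, rose by 0.78 (SE 0.083). The small proteoglycan genes Dcn and Bgn, whose products bind CCN4, fell by 0.83 and 0.24 on the log2 scale (SE 0.043 and 0.025), and the call of Bgn ended with a BCV of 0.1 (adjusted p = 0.3). Of 8 listed proteases that can cleave CCN proteins 4 were tested, and 2 fell. This was 50% of those tested, where 35.7% of all tested genes were called and 17.4% were called lower. Mmp3, the stromelysin, fell from 2560 ± 22.1 to 1350 ± 10.5 CPM (log2 fold change -0.92, SE 0.023, adjusted p = 3.35e-22 by edgeR). Mmp13, a collagenase, fell from 16 ± 0.264 to 10.1 ± 0.797 CPM (-0.66, SE 0.15) but was not called in DESeq2 (adjusted p = 0.0645). Mmp2 and Mmp14 differed by -0.064 and -0.016 and did not pass, and Mmp1a, Mmp7, Mmp9 and Plg had no counts.

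Of 14 tested other matricellular genes, 7 fell and 1 rose, with a median of -0.223 beside 0.0014 for all tested genes. Calls made up 57.1% of this list, against 17.4% called lower and 18.3% called higher over all tested genes. Thbs2, the thrombospondin-2 gene, fell from a WT level of 255 ± 12.1 to 132 ± 0.559 CPM in KO (SD, n = 2; log2 fold change -0.95 with SE 0.048, adjusted p = 3.25e-15 by edgeR), and Postn, the periostin gene, by 0.80 on the log2 scale (SE 0.033). Fbln5, an elastic fibre gene, fell by 0.49 and Sparc, which encodes a collagen-binding glycoprotein, by 0.24, the latter not with a BCV of 0.1 (adjusted p = 0.287). Tnc, the tenascin-C gene, was the 1 that rose, by 0.38 (SE 0.045), and its adjusted p was 0.0679 with a BCV of 0.1. In the same libraries the fibroblast, macrophage and endothelial marker sums given above differed between genotypes, and their part in these lists was not tested.

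**Figure D4:**
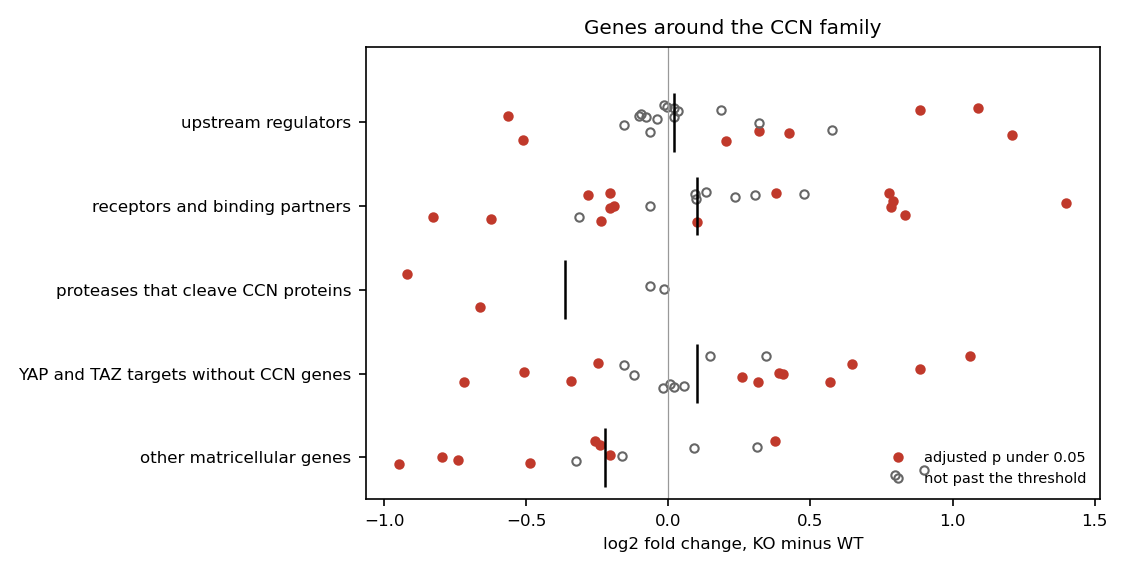
Log2 fold change, KO minus WT (x axis), of each tested gene in the lists around the CCN family (y axis), filled where the adjusted p was under 0.05, with a bar at the list's median. Every value lies between -0.95 and 1.40.

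Few of the 25746 genes neighbour the CCN loci within 50 kb. Annotated transcripts outside that set, such as Gm15270 at Ccn2, were not measured. Near Ccn5 lie Kcnk15 and Rims4, which had too few counts to be tested. Enpp1, which encodes an ectonucleotidase, lies 39231 bases from Ccn2 and measured 111 ± 1.32 CPM in WT and 126 ± 2.13 CPM in KO (SD, n = 2; log2 fold change 0.18, SE 0.051, adjusted p = 0.00755 by edgeR and 0.199 by DESeq2), opposite in sign to Ccn2. Without KO replicate 1 or WT replicate 2 its adjusted p was 0.0804 or 0.0544. Znhit6, 42181 bases from Ccn1, differed by -0.036 and did not pass. Ndrg1, 6117 bases from Ccn4, fell from 49 ± 4.43 to 32.8 ± 1.65 CPM (-0.58, SE 0.087, adjusted p = 6.68e-06), a difference close to the -0.64 of Ccn4. Tg, the thyroglobulin gene, 40599 bases from Ccn4, had only 3 and 5 counts in the KO libraries against 17 and 13 in WT (-2.23, SE 0.56, adjusted p = 0.00264 by edgeR and 0.11 by DESeq2), and without KO replicate 1 or WT replicate 1 its adjusted p was 0.0539 or 0.07.

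Open chromatin was next read from the authors' peak lists, called in each library on its own, with 121748 peaks in KO and 123935 in WT. With 1 library a genotype there is no replicate check, and the fold enrichment of a peak is the authors' value over its own library's background. The median fold over all peaks was 6.38 in KO and 5.75 in WT, so a higher fold in KO at a locus is not particular to it. Ranks within lists of different lengths show no change between them. Each of the 5 start sites lay under a peak in both libraries. At Ccn2 the peak covered the whole gene, from 24595107 to 24600381 in KO (5275 bp, fold 46.75) and from 24594707 to 24600296 in WT (5590 bp, fold 36.97). It ranked 82nd by fold in the KO list and 383rd in the WT list. By fold this peak stood above 99.93% of the KO list and above 99.67% of the WT list. Its relation to the Ccn2 transcript level was not tested.

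Ccn1 lay inside an even broader open region. In WT 1 peak of 13099 bp ran from 145640665 to 145653763 with a fold of 22.59, and in KO the same stretch was split into peaks of 10879 and 2213 bp with folds of 23.8 and 17.85. Peaks of 3 kb or more made up 3.59% of the KO and 3.39% of the WT list, and those at the starts of Ccn1, Ccn2 and Ccn4 (5317 bp in KO and 6799 bp in WT) were all of this kind. The starts of Ccn5 (folds 8.926 in KO and 7.394 in WT) and Ccn3 (12.33 and 13.56) had peaks of 1040 to 1665 bp. Ccn5 had a further peak inside the gene, with its summit 2.95 kb past the start in KO and 2.97 kb in WT, and folds of 11.48 and 11.09, above those at its start. The members with broad start-site peaks included Ccn2, the lowest relative to WT, and Ccn1, which was higher.

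From 50 kb before to 50 kb after the genes, 81 KO peaks and 87 WT peaks were listed. Of these, 13 in KO (16%) had no overlapping peak in WT, where 23.7% of all KO peaks had none, and 20 in WT (23%) had none in KO, where 24.4% of all WT peaks had none. Both lists were also cut to peaks with a −log10 q of at least 5 before matching. The order then turned, with 10 of 65 KO peaks and 2 of 56 WT peaks unmatched. Some of these overlapped a peak of the other list that fell below the cut. The unmatched share over all peaks was not computed at this cut. In the full lists, unmatched peaks were weak, with folds of at most 5.95 in KO and 4.93 in WT. All 25 KO and 17 WT peaks of fold 10 or more at the loci were matched in the other list, as were nearly all such peaks genome-wide, where 0.201% and 0.167% were unmatched. Peaks of that fold were also more numerous in the whole KO list, with 33380 of 121748 against 27622 of 123935 in WT. At Ccn2 itself 3 of 14 KO peaks and 2 of 14 WT peaks were unmatched, and at Ccn5 5 of 15 and 7 of 17.

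The upstream regions printed above were present in both lists. The one before Ccn2 had a fold of 17 in KO and 15.61 in WT, with summits at -5.76 and -5.73 kb. The one before Ccn1 had 23.8 and 16.43, with summits at -35.17 and -35.16 kb. Before Ccn5, the region with 2 CATTCC matches had folds of 18.28 and 18.9 and its neighbour at -19.45 kb in KO and -19.42 kb in WT had 16.15 and 23. Upstream of Ccn4 the folds went both ways. Summits at -7.69 kb in KO and -7.65 kb in WT had folds of 27.2 and 13.56. Those at -15.18 kb in KO and -15.38 kb in WT had 15.73 and 18.07. Over all peaks of the 5 loci away from start sites, CATTCC lay within the 200 bases around the summit in 11 of 76 KO peaks (14.5%) and 11 of 82 WT peaks (13.4%), against 14% and 13.6% of all peaks. For TGANTCA these shares were 9.21% and 8.54% against 13.1% and 11.7%, and for CAGAC 46.1% and 46.3% against 43.4% and 43.1%. No CArG box was matched at these summits, where 1% and 0.903% of all peaks held one. The TEAD and SMAD letters were about as common around the CCN genes as in all peaks, which, unlike the set at the loci, include those at start sites. TGANTCA lay in 7 peaks of each list, a smaller share than in all peaks.

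**Figure D5:**
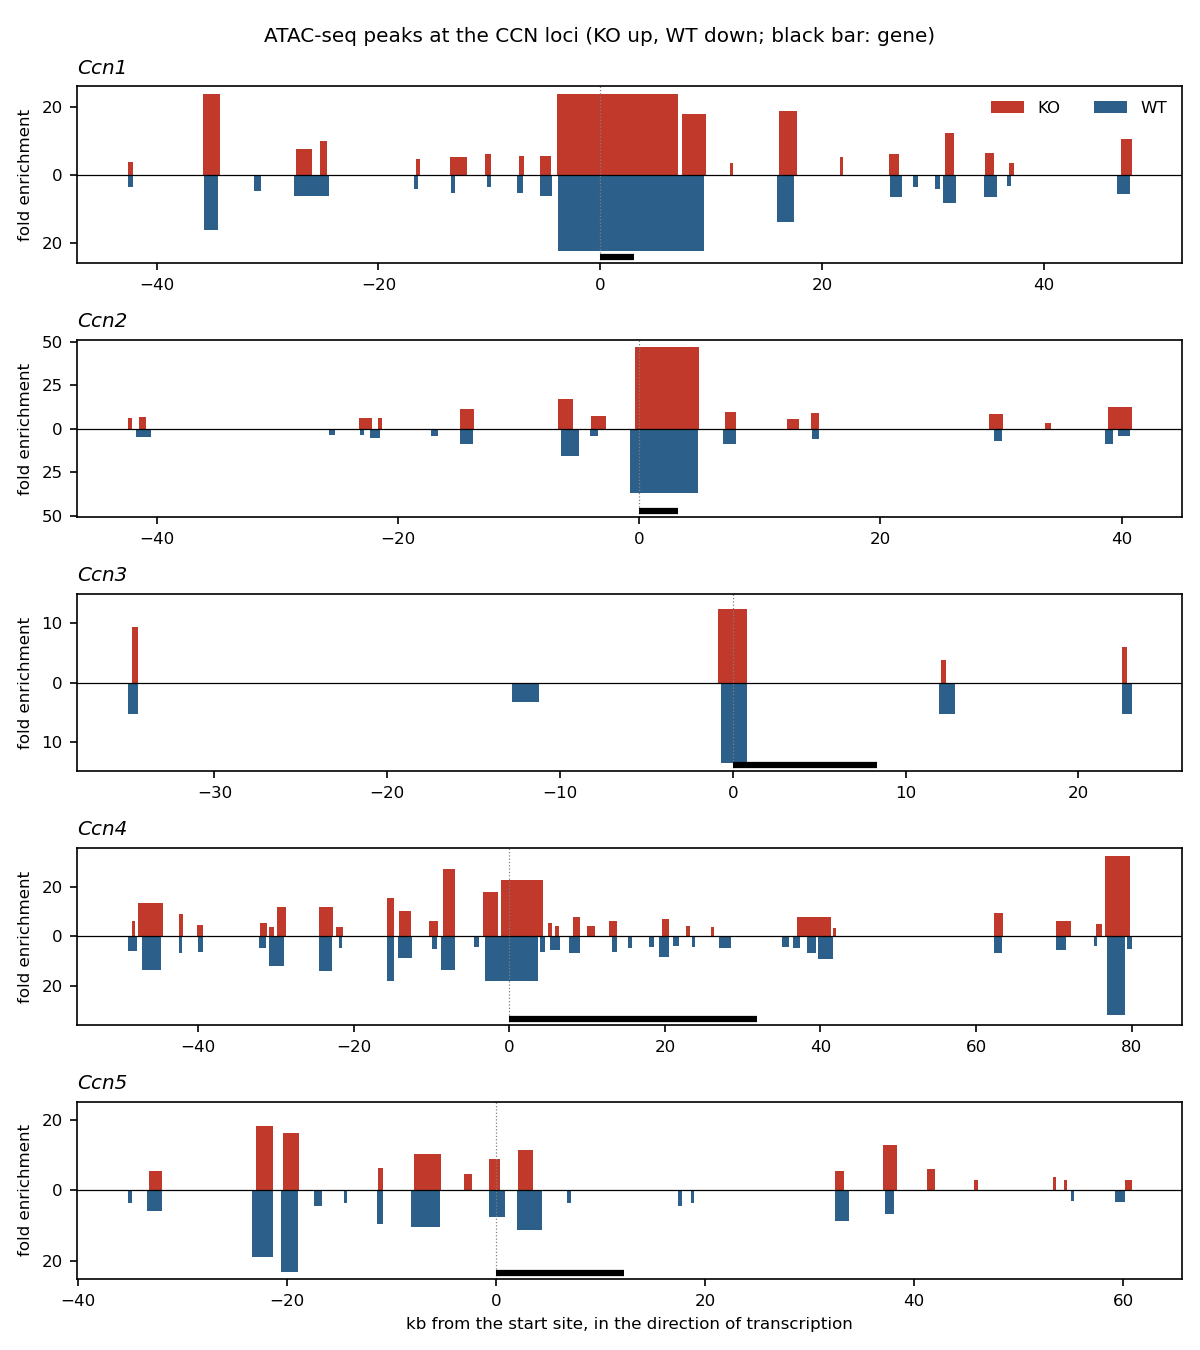
ATAC-seq peaks within 50 kb of each CCN gene, by distance from the start site in kb in the direction of transcription (x axis) and the authors' fold enrichment (y axis; KO drawn upward in red, WT downward in blue, each against its own library's background), with the gene as a black bar. Both genotypes have a peak over each start site, and the Ccn2 peak reaches a fold of 46.75 in KO and 36.97 in WT.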

How the data were processed

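The authors deposited estimated counts of RNA-seq reads in 1 table of genes, and 1 peak list for each ATAC-seq library. Per the labels' protocols, Trim Galore 0.6 trimmed 150 bp paired reads, which were mapped to mm10, RNA with STAR 2.5.3a and ATAC-seq with Bowtie2 2.3, unique and deduplicated, and MACS2 called peaks per sample. For the counting program, the annotation and the MACS2 version, nothing was given in the sources used here. The labels' protocols speak of TPM, but sums of 8429166 to 11370115 with 10.8% to 12.2% values that are not whole were treated as estimated counts and rounded. The deposited peak columns hold a score, a fold enrichment ratio and −log10 p and q values, per the labels' naming of MACS2. No depth is known for ATAC-seq.

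Genes were tested with edgeR 4.0.16 (R 4.3.3): filterByExpr (minimum count 10), TMM, quasi-likelihood fit of genotype, Benjamini-Hochberg over 12192 genes at 0.05, tested on simulated data. DESeq2 1.42.0 was an alternative. The SE is the log2 fold change over the root of F. Lengths and start sites came from GENCODE M21 (GRCm38), where 25635 of 25746 genes were found and 25471 had identical coordinates. Replicates differed by more than sampling noise (chi-square per degree of freedom 1.99 in KO and 1.77 in WT). Peaks overlapping by 1 bp or more were matched. Start-site peaks lie within 1 kb of the start. Members and lists were chosen with earlier results of these data known. Named were all members, up to 4 called genes per pathway list by p and those behind its counts of 5 or fewer, 3 nearest patterns, and tested neighbours within 50 kb. One of the genes nearest to Ccn3 is not reported here.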

Additional observations from a re-analysis of the deposited data

How the results depend on the processing

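The directions of the 5 member differences held under every alternative run. With library size as the only scaling, the log2 fold changes were 0.19 for Ccn1, -3.05 for Ccn2 and -0.43 for Ccn3, and the levels of Ccn1 were 775.4 (KO) and 680.6 (WT) and of Ccn2 in KO 38.5 CPM per kb. Leaving out 1 library gave 0.157 to 0.172 for Ccn1, -3.09 to -3.06 for Ccn2, 3392 to 3674 called genes and 5 to 7 called upstream regulators, against 8 with all libraries. DESeq2 called 1688 of the genes (4352 in edgeR), with 4 upstream regulators, 9 receptors and partners, 1 protease and 7 YAP and TAZ targets. A BCV of 0.1 gave 1780 genes, 5 upstream regulators, 7 receptors and partners, 6 YAP and TAZ targets and 4 other matricellular genes, since a larger spread is assumed. The longest transcript as length gave 43.92 (KO) and 369.2 (WT) CPM per kb for Ccn2, 35.67 and 55.73 for Ccn4 and 42.49 and 153 for Ccn5, with the WT order unchanged. Within 20 kb the loci held 42 KO peaks, 7 unmatched, and 48 WT peaks, 14 unmatched. Cutting both lists at a −log10 q of at least 5 before matching left 65 KO peaks, 10 of them unmatched. It left 56 WT peaks, 2 of them unmatched, so that the unmatched share at the loci was then higher in KO. With a reciprocal overlap of 50%, 35 KO and 41 WT peaks were unmatched. For these alternative peak settings the unmatched share over all peaks was not computed, so the counts at the loci have no background beside them. The cause of these shifts, beyond the assumed spread and the narrower windows, was not tested. Replicate numbers are shared by KO and WT, but the labels do not pair them, and the deviations of same-numbered libraries had a correlation of 0.0004 over genes. With the replicate block, 4408 genes were called and no member or named gene changed its call. With 2 libraries a genotype and an unknown ATAC-seq depth, small differences cannot be judged.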
